A study of Mus musculus with 4 samples.

Results

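CD8 T cells with little CD44 and little CD62L on their surface (P4, CD44low CD62Llow) were compared with cells of naive phenotype (P1, CD44low CD62Lhigh) across all named genes. Both subsets came from untreated C57BL/6 mice of genotype PD-1-/-, aged 1 to 3 months, and were sorted from spleen and lymph node. Each was hybridised to 1 single-colour array, so the comparison uses 2 of the 4 arrays of the series; the other two hold CD44high CD62Llow cells (P3) and CD44high CD62Lhigh cells (P2) of the same genotype, tissue and age. Every subset thus lacks the coinhibitory receptor PD-1, whose gene is Pdcd1, and no PD-1-sufficient cells are among the 4 samples. Of 22911 genes named on the array, 13175 were well above background in P4 or P1 and form the comparison. With 1 array per subset no test was possible, no difference has a replicate check, and differences are described by size. The number of mice behind each sort is not stated in the labels.

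As background, CD62L is the selectin that lets lymphocytes enter lymph nodes from blood, and T cells lose it from their surface after strong activation. CD44 binds hyaluronan and is carried at high density by antigen-experienced T cells. Naive CD8 T cells are CD44low CD62Lhigh, and effector cells, which make granzymes, chemokines and interferon gamma, are usually CD44high CD62Llow, so that cells low for both markers fit neither description.

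A level below means log2 of the processed signal minus the 75th percentile of the array, so that 0 is the 75th percentile of all probes, and a difference means the P4 level minus the P1 level. Levels were not compared between genes, since each probe binds with its own strength. That percentile was 453 signal units in P4 and 481 in P1, and 50.6% of 56605 probes were well above background in P4 and 49.5% in P1. Repeated spots of 1 probe had a standard deviation of 0.090 in P4 and 0.071 in P1 on the log2 scale, which gives a difference between arrays a 95% half-width of 0.25 or 0.20. Below a level of -3 that half-width was 0.61 in P4 and 0.62 in P1, and variation among mice, sorts and labellings is not covered by it. Where a gene was not well above background on an array, its value was raised to the lowest signal that was (a level of -4.82 in P4 and -4.67 in P1), and the difference is a bound, written "at least". A gene well above background on P4 alone can thus be counted as higher but never as lower, and the reverse holds for P1. Spots with several neighbours at least 2-fold brighter than on every other array are named as lying in a locally bright area. For P4 and P1 at least 2 such neighbours, of a median of 19, were enough.

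Cd44 and T cell lineage genes were examined first. Cd44 stood at -1.24 in P4 and -1.80 in P1, against 2.11 in P3 and 2.26 in P2, so both CD44low arrays lay far below both CD44high arrays. The coreceptor genes were close, with Cd8a at 4.94 in P4 and 5.02 in P1 and Cd8b1 at 7.48 in P4 and 7.92 in P1, and Cd3e, a T cell receptor subunit, stood at 6.44 in P4 and 6.34 in P1. Cd4 did not separate the arrays, at -0.39 in P4 and -0.40 in P1. Pdcd1, the disrupted gene, still gave signal, at 1.70 in P4 and -3.30 in P1, and at 1.76 in P3 and -3.06 in P2; its spot lies in a locally bright area, and whether its probe reads the deleted stretch was not examined here.

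Most genes had similar levels in P4 and P1, and the differences ran mainly towards P4. The median difference over all 13175 genes was -0.06. Of the 12071 genes above background on both arrays 95.7% lay within 2-fold, while 666 of 1104 genes above background on 1 array have a bound under 2-fold, so that their fold is not known. Levels of genes above background on both arrays correlated across genes at r = 0.980, with genes not being independent replicates. Higher by at least 2-fold in P4 were 723 genes (5.49% of those compared), and lower by as much were 233 (1.77%). The higher genes reached further, with 308 at least 4-fold, 129 at least 8-fold, 69 at least 16-fold and 14 at least 64-fold higher, against 56, 18, 0 and 0 for the lower ones. Of the higher genes 407 were measured on both arrays and 316 were bounds, and of the lower genes 111 were measured and 122 were bounds. Locally bright areas held 5.48% of all genes compared, 8.58% of the higher genes and 42.1% of the lower ones; without them 661 and 135 genes were left. Fewer cells of a type and less RNA per cell cannot be told apart in such pooled RNA.

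**Figure D1:**
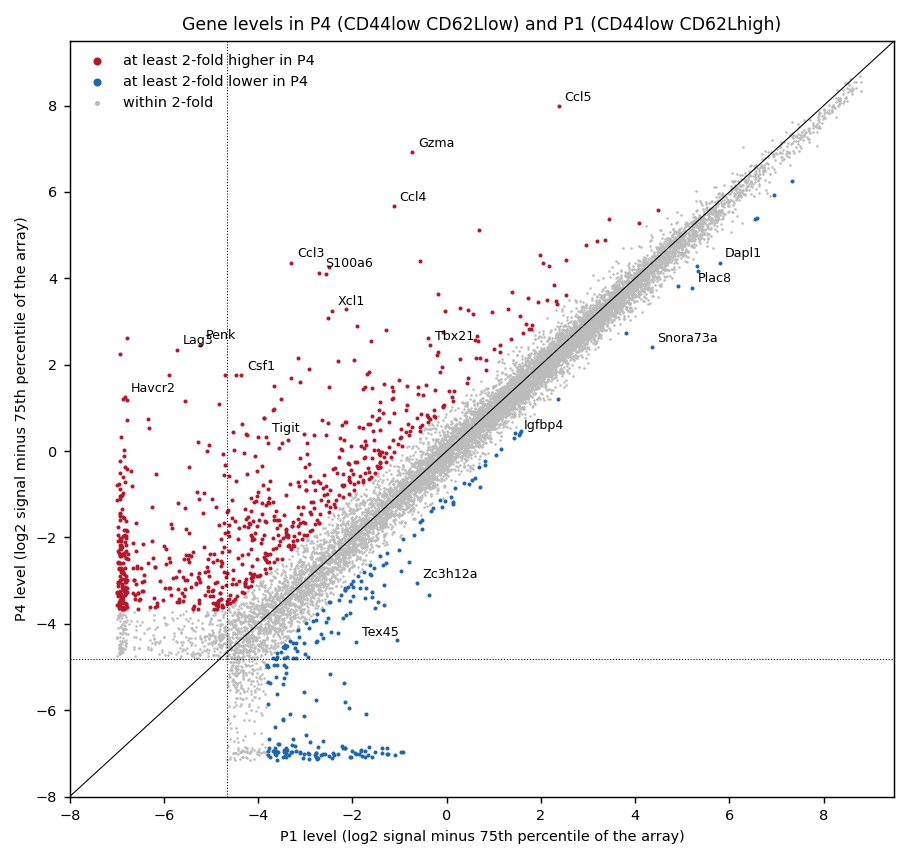
Level of each gene in P4 (vertical) against P1 (horizontal), both as log2 signal minus the array's 75th percentile, with red points at least 2-fold higher in P4, blue points at least 2-fold lower and grey points within 2-fold. Dotted lines mark the lowest level well above background on each array, and values beyond them are drawn as scanned, although they were raised to the line for the differences; the 723 red points reach much further from the diagonal than the 233 blue ones.

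Genes of the cytotoxic granule were among those with the largest differences. Of 20 measured granule and death ligand genes, 7 were higher by at least 2-fold and 0 lower (median difference 0.76). Over the 18 above background on both arrays 6 were higher (median 0.60). Beside this and every list count below stand the shares over all genes compared, 5.49% higher and 1.77% lower. In a short list 0 lower members is near that share and says little about the list. Gzma, a granzyme that is a trypsin-like protease, stood at 6.91 in P4, against -0.73 in P1 (a difference of 7.64), and at 6.80 in P3 and 1.42 in P2. Gzmb, the caspase-activating granzyme, stood at 4.09 in P4 and -2.57 in P1 (101-fold), and at 5.11 in P3 and -0.64 in P2. For both genes the 2 CD62Llow arrays were high and the 2 CD62Lhigh arrays low. Gzmk, another granzyme gene, stood at 2.62 in P4 and was not well above background in P1, so that it was at least 156-fold higher. The Fas ligand gene Fasl was 5.61 higher, with its spot in a locally bright area, and Stx11, whose product acts in granule fusion, was 3.21 higher. Serpinb6b and Serpinb9, genes of the serpin family of protease inhibitors, were higher by 1.98 and 1.32. The granule genes of the list were not all so far apart: perforin (Prf1) differed by 0.77, Nkg7 by 0.75, Srgn, the granule proteoglycan, by 0.14 and Gzmm by 0.21.

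The stretch before the start of the gene is shown for 5 of the genes with the largest differences, the only ones among the named higher genes with 1 listed promoter whose stretch held the letters TGTGGTT, or AACCACA on the other strand, which RUNX transcription factors bind. RUNX factors act throughout CD8 T cell development and effector differentiation. The sequences are from RefSeq (GRCm38.p6), 250 bases each, read 5′ to 3′ along the gene's strand and ending just before its start, with the RUNX letters in capitals. Gzma lies at chr13:113100982-113101231 on the minus strand, Gzmb at chr14:56262335-56262584 on the minus strand, S100a6 at chr3:90612644-90612893 on the plus strand, Xcl1 at chr1:164935523-164935772 on the minus strand and Havcr2 at chr11:46454681-46454930 on the plus strand.
Gzma: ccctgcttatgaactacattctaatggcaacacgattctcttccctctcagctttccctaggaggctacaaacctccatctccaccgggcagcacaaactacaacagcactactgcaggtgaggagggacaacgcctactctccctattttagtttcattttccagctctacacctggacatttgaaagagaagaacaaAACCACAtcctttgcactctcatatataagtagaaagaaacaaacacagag
Gzmb: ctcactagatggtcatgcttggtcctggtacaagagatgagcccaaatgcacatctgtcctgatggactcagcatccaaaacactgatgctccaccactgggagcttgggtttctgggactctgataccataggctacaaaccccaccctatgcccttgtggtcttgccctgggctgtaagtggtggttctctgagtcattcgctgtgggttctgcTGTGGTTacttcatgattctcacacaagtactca
S100a6: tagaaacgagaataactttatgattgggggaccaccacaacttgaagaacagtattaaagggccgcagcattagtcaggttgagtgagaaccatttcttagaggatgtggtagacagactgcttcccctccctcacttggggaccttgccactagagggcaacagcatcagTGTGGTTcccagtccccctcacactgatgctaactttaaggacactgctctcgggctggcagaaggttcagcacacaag
Xcl1: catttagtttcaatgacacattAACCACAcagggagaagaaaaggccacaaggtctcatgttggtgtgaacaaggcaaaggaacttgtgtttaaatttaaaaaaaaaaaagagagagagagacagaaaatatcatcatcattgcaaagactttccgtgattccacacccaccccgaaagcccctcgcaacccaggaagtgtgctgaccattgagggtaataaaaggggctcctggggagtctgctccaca
Havcr2: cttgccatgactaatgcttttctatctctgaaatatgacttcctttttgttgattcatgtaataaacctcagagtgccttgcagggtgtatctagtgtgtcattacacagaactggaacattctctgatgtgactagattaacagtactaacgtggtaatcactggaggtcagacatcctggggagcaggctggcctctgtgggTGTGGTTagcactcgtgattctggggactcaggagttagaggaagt

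Counted from the first base of the gene, the capitals begin at -51 in Gzma, -34 in Gzmb, -79 in S100a6, -228 in Xcl1 and -46 in Havcr2. The letters were searched on both strands in windows of 250 bases before to 50 after the start. Among 8484 compared genes with exactly 1 listed promoter, 4.13% held them, as did 5.27% of all 32851 promoters in the table. Among the 391 higher genes outside locally bright areas it was 8.70%, and among the 81 lower ones 3.70%. The AP-1 letters TGANTCA were in 7.67% of the higher, 1.23% of the lower and 5.02% of all compared genes, and in 7.81% of the table's promoters. The ETS letters CCGGAAGT were in 2.05%, 1.23% and 8.39%, and in 3.89% of the table's promoters. The T-box letters GGTGTGA were in 4.35%, 3.70% and 3.72%, and in 3.98% of the table's promoters. For the NFAT letters TGGAAAA the shares were 3.84%, 6.17% and 4.96%, with 6.73% in the table. For the KLF letters GGGCGTGG they were 9.72%, 8.64% and 9.67%, with 5.33% in the table. For the NF-kB letters, GGGAC followed by TTTCC, they were 0.767%, 0% and 0.165%, with 0.155% in the table. For the interferon response letters, GAAA on either side of 2 free bases, they were 3.84%, 2.47% and 3.31%, with 3.44% in the table. In Gzma, the NFAT and interferon response letters overlap each other and not the RUNX letters. These shares describe letters and not bound sites, no test was made on them, and the RUNX stretches were picked for display with the differences known.

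Chemokine genes had the largest median of all lists, 3.09 over 8 measured members, of which 4 were at least 2-fold higher and 0 lower. That median turned to -0.048 when all 17 members on the array were counted without a filter on dim genes, since the 9 others were not well above background in either subset. The 4 encode ligands that activated T and natural killer cells release. Ccl3, which draws monocytes and T cells, stood at 4.36 in P4 and -3.29 in P1 (202-fold), and at 4.61 in P3 and 1.20 in P2. Ccl4, a chemokine closely related to it, stood at 5.67 in P4 and -1.11 in P1, and at 5.96 in P3 and 3.73 in P2, and its 2 probes gave differences of 6.77 and 6.78. Ccl5, a chemokine gene kept as stored mRNA in memory cells, stood at 7.99 in P4 and 2.38 in P1, and at 7.49 in P3 and 7.53 in P2. P1 was thus the only array with a low Ccl5 level. Xcl1, which draws XCR1-bearing dendritic cells, stood at 3.25 in P4 and -2.42 in P1, and at 3.52 in P3 and 2.76 in P2. Cxcl16 (0.58), Ccl25 (-0.05, with 3 probes from -0.91 to 0.24) and Cxcl10 (-0.06) lay within 2-fold.

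Among 18 measured cytokine genes 7 were at least 2-fold higher and 0 lower, with a median of 0.80. Csf1, the macrophage growth factor M-CSF, stood at 1.75 in P4 and -4.36 in P1 (69.2-fold), and at 1.59 in P3, while it was not well above background in P2; its 3 probes gave 3.78 to 6.11. Ifng stood at 5.12 in P4 and 0.69 in P1 (a difference of 4.43), and at 6.43 in P3 and 4.67 in P2. Il10, the anti-inflammatory cytokine, was well above background only in the CD62Llow subsets, at 0.03 in P4 and 0.01 in P3, and was at least 4.70 higher in P4 than in P1. Tnfsf14, which encodes LIGHT, was 2.82 higher, and Il21 and Tnfsf11, the RANK ligand gene, were higher by at least 1.41 and 1.74; a second Tnfsf11 probe gave 0.34. Of the 13 cytokine genes detected in P4 and in P1 alike, 3 were higher. Tnf (0.67) and Lta (0.66) lay within 2-fold, and Il2, Il4 and Il17a were not well above background in P4 or P1.

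Of 10 measured chemokine receptor genes 6 were higher by at least 2-fold and 0 lower, with a median of 1.34. All 10 were well above background in P4, against 7 in P1. Over the 7 above background on both arrays 4 were higher (median 1.19). Cx3cr1, the fractalkine receptor of effector cells, stood at 1.19 in P4 and was not well above background in P1 (at least 57.9-fold), with 4.13 in P3 and -2.84 in P2; a second probe gave 2.57. Cxcr3, the receptor for interferon-induced chemokines, stood at 3.54 in P4 and 1.73 in P1, below both CD44high subsets (5.49 in P3 and 5.11 in P2). Cxcr5 and Cxcr6 were higher by 1.49 and 1.19. Ccr7, the lymph node homing receptor, differed by -0.66 and Ccr9, the gut homing receptor, by 0.02.

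Genes of lymph node homing and egress differed less, with a median of -0.44 over 15 measured members. In this list 13 differences were negative, but 0 reached 2-fold on the lower side: Klf2, which drives transcription of S1pr1, differed by -0.82, S1pr1, the egress receptor, by -0.72, Gpr183 by -0.64 and Foxo1 by -0.57. The exception was S1pr5, an egress receptor of effector and natural killer cells, at -0.71 in P4 and at least 3.96 higher than in P1, with 1.69 in P3 and -2.27 in P2. Among 23 integrin and adhesion genes 3 were at least 2-fold higher. These were Itgax, the CD11c gene (at least 4.05), Gcnt1, whose enzyme builds the core 2 glycans that selectins bind (at least 4.29), and Alcam (2.94). Over the 20 genes of this list above background on both arrays 1 was higher (median 0.28). The LFA-1 chain gene Itgal (0.94) and the integrin genes Itgb1 (0.67) and Itga4 (0.55) lay within 2-fold.

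Of 23 genes of tissue residency, 11 were at least 2-fold higher and 0 lower (median 0.86). Hic1, a transcriptional repressor, stood at 2.11 in P4 and -1.96 in P1, with 2.39 in P3 and -1.63 in P2. Chn2, a Rac GTPase-activating protein gene, stood at 1.84 in P4 and -1.64 in P1, with 1.62 in P3 and -1.60 in P2. For both genes P4 lay beside P3, and P1 beside P2. Rgs1, which dampens chemokine receptor signalling, was 2.11 higher, and P2rx7, an ATP-gated channel gene whose spot lies in a locally bright area, 1.79. The residency integrin genes Itgae (0.02) and Itga1 (0.71) and the early activation gene Cd69 (-0.24) lay within 2-fold.

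S100 proteins, annexins and galectins had a median of only 0.06, but 5 of 19 members were at least 2-fold higher. S100a6 stood at 4.13 in P4 and -2.71 in P1, and at 6.55 in P3 and 3.43 in P2. S100a4 stood at 4.25 in P4 and -2.51 in P1 (108-fold), and at 7.44 in P3 and 2.48 in P2. Both encode calcium-binding proteins linked to cell motility, and P1 was the only array where they were low. Lgals3, the galectin-3 gene, stood at 1.77 in P4 and was at least 6.24 higher than in P1 (4.63 by its other probe), and Anxa2 was 2.30 higher. Lgals1 (0.65), S100a10 (-0.05) and S100a9 (-0.90) lay within 2-fold.

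Coinhibitory receptor and exhaustion genes had 18 of 26 measured members at least 2-fold higher and 1 lower, with a median of 2.24. Over the 22 genes above background on both arrays 15 were higher and 1 lower (median 2.09). Lag3, a receptor that binds class II molecules, stood at 2.34 in P4 and was at least 129-fold higher than in P1, with 2.67 in P3 and -2.36 in P2, and a second probe gave at least 5.23. Havcr2, the TIM-3 gene, stood at 1.24 in P4 and 1.94 in P3 and was not well above background in either CD62Lhigh subset (at least 60.1-fold for P4 over P1). Entpd1, which encodes CD39, stood at 0.63 in P4 and -4.35 in P1, with 1.33 in P3 and -2.90 in P2, and its other probe gave 3.52. Tigit stood at 0.31 in P4 and -3.83 in P1, with 1.32 in P3 and -2.15 in P2. In these 4 genes P4 lay below P3 and above both CD62Lhigh subsets. Lilrb4a, an inhibitory immunoglobulin-like receptor gene, was 4.78 higher, Klrg1, a marker of late effector cells, at least 4.24, Cd38 3.63, Cd200r1 3.58, Cd160 2.28 and Ctla4 2.20. Tox, the transcription factor gene of exhausted cells, stood at 2.93 in P4 and 1.81 in P1, with 3.81 in P3 and 1.37 in P2. Lair1, a collagen-binding inhibitory receptor gene, went the other way, at -1.64 in P4 and -0.57 in P1, with 0.78 in P3 and 0.44 in P2, but did not reach 2-fold after normexp background correction with quantile normalization, where 0 genes of the list were lower. Btla (-0.51) and Cd96 (-0.03) lay within 2-fold.

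Of 20 costimulatory receptor genes, 5 were higher by at least 2-fold and 0 lower (median -0.03), against 5.49% higher and 1.77% lower over all genes compared. Tnfrsf9, the 4-1BB gene, stood at 3.63 in P4 and -0.18 in P1, with 2.73 in P3 and 0.09 in P2, and its 2 probes gave 3.81 and 3.94. Slamf7, a self-ligand receptor of cytotoxic cells, stood at 0.19 in P4 and -3.50 in P1. Slamf1, Cd7 and Tnfrsf1b were higher by 1.92, 1.69 and 1.23, whereas Cd28 (-0.08), Cd27 (0.29) and Icos (-0.02) lay within 2-fold. Among 22 anergy and tolerance genes 4 were higher. The largest difference was that of Rnf128, the ubiquitin ligase GRAIL, at -0.04 in P4 and -4.31 in P1, with 0.59 in P3 and -2.45 in P2. Egr2 (0.49), Egr3 (0.79) and Cblb (0.55) lay within 2-fold.

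Genes known from regulatory T cells had 11 of 18 measured members at least 2-fold higher and 0 lower (median 1.79), and several of them are also activation genes of CD8 T cells. Over the 15 genes above background on both arrays the median was 1.00, with 8 higher. Penk, the enkephalin precursor gene, stood at 2.46 in P4 and was at least 140-fold higher than in P1, with 3.63 in P3 and -3.32 in P2. Il2ra, the high-affinity chain of the interleukin-2 receptor, stood at 0.02 in P4 and 0.03 in P3 and was at least 4.54 higher in P4 than in P1. Lrrc32, whose product GARP holds latent TGF-beta, was 2.99 higher, and Ikzf2, the Helios gene, 2.66. Foxp3, the lineage factor of these cells, stood at -2.50 in P4 and -3.50 in P1. Beside these values, the list of CD4 T cell markers had 3 of 6 measured members at least 2-fold higher and 0 lower (median 0.70). Foxp3 is on it, at a difference of 1.00, just past 2-fold. Under quantile normalization, with or without normexp, 2 of 6 were higher. Above background on both arrays were 5, of which 2 were higher (median 0.40). The summed signal of the CD4 marker list, relative to the 75th percentile, was 21.4 in P4 and 16.2 in P1. Cd4 itself differed by 0.01, Cd40lg and Ccr4 were not well above background, and the part of CD4 T cells in the regulatory gene differences was not tested.

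Of 19 measured natural killer lectin receptor and adaptor genes, 13 were higher by at least 2-fold and 0 lower (median 2.70). In P4 19 of these genes were well above background, against 7 in P1, so 12 entered the list through P4 alone and its counts support no direction. Over the 7 genes above background on both arrays the median was 0.03, with 3 higher. In the authors' deposited value table it was 0.07, with 3 of 7 higher. That table holds almost only probes above background on every array, so it gives no separate check of the filter. After normexp background correction with quantile normalization 10 of 19 were higher. Fcer1g, the signalling chain of Fc receptors, stood at 0.76 in P4 and -3.88 in P1 (a difference of 4.65), with 1.99 in P3 and 0.37 in P2; its spot lies in a locally bright area of the P3 or P2 array. Klrb1a and Klrb1c, receptors of the NKR-P1 family, were higher by at least 4.06 and 2.91 (a second Klrb1c probe gave 1.72), Klrk1, the NKG2D gene, by at least 3.38, and Tyrobp, the adaptor DAP12, by at least 3.56. For Klrk1 the level of P4 (-1.29) was below those of P3 (2.89) and P2 (1.08). P4 was also below P3 and P2 for Ly49 receptor genes: Klra7 stood at -1.56 in P4 and -4.26 in P1, with 1.60 in P3 and 4.79 in P2, and Klra8 at -1.34 in P4 and -4.29 in P1, with 0.79 in P3 and 2.04 in P2, although the 3 Klra8 probes gave differences from 1.13 to 2.95. Probes for Ly49 genes can cross-react, because the genes are nearly identical. Klrd1 (-0.42), Hcst (-0.27) and Cd247 (-0.23) lay within 2-fold. Among 15 markers of natural killer and type 1 innate lymphoid cells, 13 were measured and 9 were at least 2-fold higher (median 1.99); above background on both arrays were 8, of which 5 were higher, and after normexp background correction with quantile normalization the median was 1.25. The list had a summed signal of 202 in P4 and 60.3 in P1. Most of the P4 sum came from the granzyme gene Gzma, a member of this list at a level of 6.91 in P4 and -0.73 in P1. The receptor gene Ncr1 and the integrin gene Itga2 of that list were not well above background in P4 or P1. Fcer1g, Tyrobp, Klrb1c and Klra8, named above, are also on it and were higher in P4, while Klrd1 (-0.42) lay within 2-fold. The part of natural killer cells in these differences was not tested.

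Transcription factors of effector and memory cells had 10 of 27 measured members at least 2-fold higher and 0 lower (median 0.65). Over the 24 above background on both arrays 8 were higher (median 0.62). Tbx21, the T-bet gene, stood at 2.45 in P4 and -0.37 in P1, with 4.06 in P3 and 3.75 in P2. Prdm1, the Blimp-1 gene, stood at 1.49 in P4 and -1.16 in P1, with 2.46 in P3 and 0.05 in P2. Eomes, the T-box partner of Tbx21, stood at 3.30 in P4 and 1.31 in P1, with 3.77 in P3 and 3.62 in P2. Tbx21 and Eomes were thus low only in P1. Bhlhe40, a factor that limits Il10, was 4.11 higher, Maf, which drives Il10, 3.98, Zeb2, which acts with T-bet, 2.62, and Zbtb32 at least 4.80. Batf (0.88), Irf4 (0.70), Id2 (0.59) and Hopx (0.65) lay within 2-fold.

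Factors of naive and stem-like cells differed little, with 0 of 21 measured members past 2-fold and a median of -0.30. The median was -0.20 under quantile normalization and -0.19 both in the authors' deposited value table and with the mean over probes. In this list 16 differences were negative, among them Lef1 (-0.73), Foxp1 (-0.55), Tcf7 (-0.54), which encodes TCF-1, Bach2 (-0.52) and Satb1 (-0.47). On the positive side stood Sox4 (0.90), Bcl6 (0.69) and Id3 (0.30). Tcf7, Lef1 and Bach2 thus lay within 2-fold of P1 on the array where Tbx21, Prdm1 and Eomes were at least 2-fold above it.

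Genes induced by antigen receptor signals had 9 of 30 measured members at least 2-fold higher and 0 lower (median 0.59). Spry2, an inhibitor of receptor signalling, was 4.96 higher by its brighter probe and 0.57 by the other. Ier3, Cd83 and Nr4a2 were higher by 4.40, 2.28 and 1.81. Fos lay near 0, Egr1 at 0.24, Junb at -0.21, Myc at -0.26 and Cd69 at -0.24. Feedback genes of the MAP kinase and AKT pathways had a median of -0.15, with 3 of 23 higher, Spry2, Spry1 (2.04) and the phosphatase gene Dusp14 (at least 3.38, and 1.76 by its other probe). Of 32 genes of the T cell receptor complex and its proximal kinases and adaptors, 0 passed 2-fold, and the median was -0.14, with Lck at -0.16, Zap70 at 0.25, Lat at -0.02 and Sh2d2a at 0.96.

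Receptors for the cytokines that sustain T cells came next. Besides Il2ra, Il10ra stood at 3.32 in P4 and 0.29 in P1, and Il2rb, the shared chain for interleukins 2 and 15, at 5.58 in P4 and 4.48 in P1, with 5.88 in P3 and 6.51 in P2. Il7r, the receptor of naive and memory cells, stood at 5.07 in P4 and 6.03 in P1, and Il6ra at 4.28 in P4 and 5.30 in P1. Of 16 measured genes of these families 3 were at least 2-fold higher and 1, Il6ra, lower; none was lower (0 of 16) under either quantile normalization, with or without normexp, and 0 of 15 in the authors' deposited value table. Il12rb1 and Il18rap were higher by 1.17 and 1.14, and Il18r1 differed by -0.96. Cish, a STAT5 target that curbs receptor signalling, was the only one of 13 genes of the SOCS family and of cytokine feedback to pass 2-fold, at 2.22 in P4 and -0.22 in P1, with 2.71 in P3 and -0.23 in P2.

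Death genes had 5 of 26 measured members at least 2-fold higher and 0 lower (median 0.26). Besides Fasl they included the inflammatory caspase genes Casp1 (3.02) and Casp4 (2.54) and Bcl2a1d (2.32), a survival gene with near-identical neighbours. Bcl2 (-0.36), Mcl1 (-0.03) and Bcl2l11 (0.35), the BIM gene, lay within 2-fold. Differences of cell cycle genes were positive in 52 of 60 cases, and 9 reached 2-fold (median 0.54); after normexp background correction with quantile normalization 3 did (median 0.30), and 5 of the 54 above background on both arrays. Mki67, a marker of cycling cells, stood at 0.26 in P4 and -1.54 in P1, with 2.63 in P3 and 0.26 in P2, and the thymidine kinase gene Tk1 stood at -0.59 in P4 and -2.89 in P1. Top2a (0.76), Ccnb1 (0.63), Mcm2 (0.56) and Pcna (-0.08) lay within 2-fold. CDK inhibitor genes had 4 of 21 higher, of which the normexp setting left 1, Cdkn2b (at least 2.28), Cdkn2a (at least 1.71), Cdkn2c (1.30) and Cdkn1a (1.16), whereas Cdkn1b, the p27 gene of resting T cells, differed by -0.42.

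Metabolic and housekeeping lists lay near the median of all genes. Oxidative phosphorylation (median -0.09 over 42 genes), proteasome and class I presentation (0.01 over 27) and cholesterol and fatty acid synthesis (0.03 over 30) each had 0 genes past 2-fold. Among 24 glycolysis genes Hk2, an inducible hexokinase gene, was 1.87 higher and the lactate transporter gene Slc16a3 1.43 higher. The median was 0.20 for ribosome biogenesis genes. For the 48 measured cytosolic ribosomal protein genes it was -0.27, with differences from -0.81 to -0.07, but it was -0.042 under quantile normalization, -0.052 with normexp before it and -0.034 in the authors' deposited value table. The near-identical heat shock genes Hspa1a and Hspa1b were higher by 1.92 and 1.53, while the endoplasmic reticulum chaperone gene Hspa5 (0.04) was level.

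**Figure D2:**
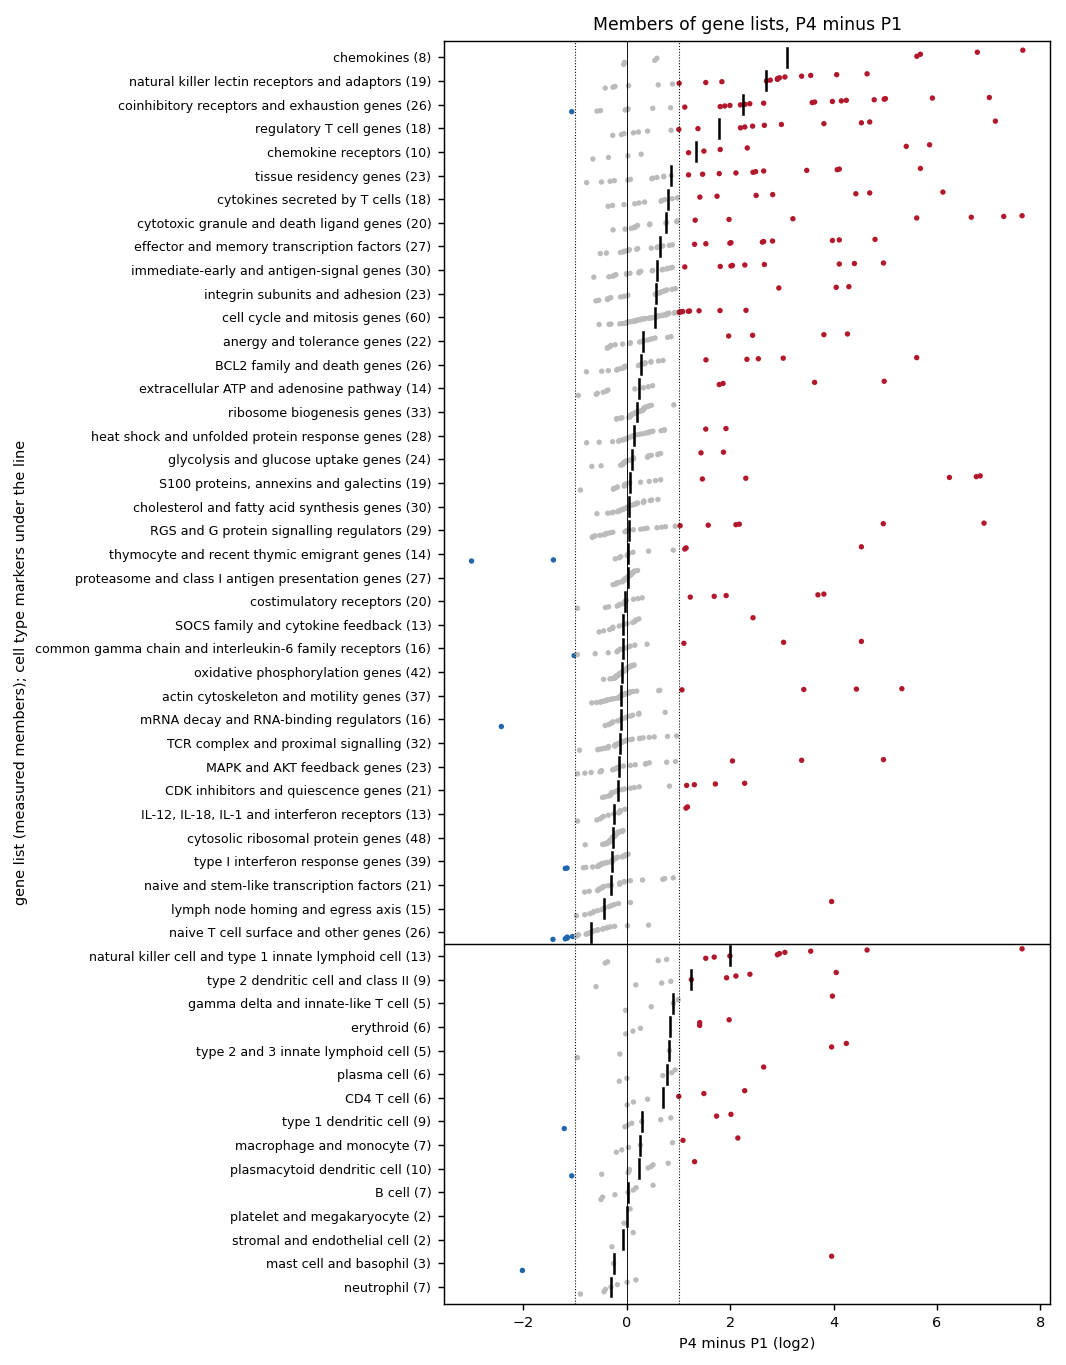
P4 minus P1 difference (horizontal, log2) of each measured member of the 38 lists of function and, under the line, the 15 lists of cell type markers, with the number measured in brackets. Red points are at least 2-fold higher in P4, blue ones at least 2-fold lower, and black ticks are list medians, from 3.09 for chemokines to -0.70 for naive T cell surface genes.

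Further genes were among the largest differences, some of them on lists not described above, as Adgrg1 on that of RGS and G protein signalling regulators. Plek is on the list of actin and motility genes. Adgrg1, the adhesion receptor GPR56 of cytotoxic cells, stood at 2.24 in P4 and 2.17 in P3 and was not well above background in P1 or P2 (at least 120.1-fold for P4 over P1). Rgs16, a brake on G protein signalling, stood at 4.40 in P4 and -0.56 in P1, with 5.09 in P3 and 1.04 in P2. Septin4, a septin cytoskeleton gene, stood at 1.60 in P4 and -3.11 in P1, with 1.24 in P3 and -3.85 in P2. In these 3 genes P4 and P3 were close and P1 and P2 lower. Sema7a, a membrane-anchored semaphorin gene, was 5.17 higher in P4. Pdgfb, a growth factor chain gene, was 4.84 higher, Soat2, a cholesterol esterifying enzyme gene, 4.71 (2.58 by its other probe), and Ptpn13, a tyrosine phosphatase gene, 4.66, although another Ptpn13 probe gave 0.28. Plek, the pleckstrin gene, was 5.32 higher by its brighter probe and 0.74 by the other. Among bounds, Osbpl3, a lipid-binding protein gene, was at least 6.44 higher, Cables1 6.43, the secreted kinase gene Pkdcc 5.88, Dapk2 5.82 and Prr5l, whose product binds mTOR complex 2, 5.76. The other probe gave 1.64 for Osbpl3, 2.15 for Pkdcc and 3.23 for Prr5l. The motor gene Myo1e and the small GTPase gene Rhoc were higher by at least 4.44 and by 3.42, and by 1.36 each with their other probes. Of 37 actin and motility genes 4 in all were at least 2-fold higher, and 25 had negative differences (median -0.11). The sign of that median depended on the scaling. It was 0.066 under quantile normalization, 0.053 with normexp before it and 0.075 in the authors' deposited value table.

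**Figure D3:**
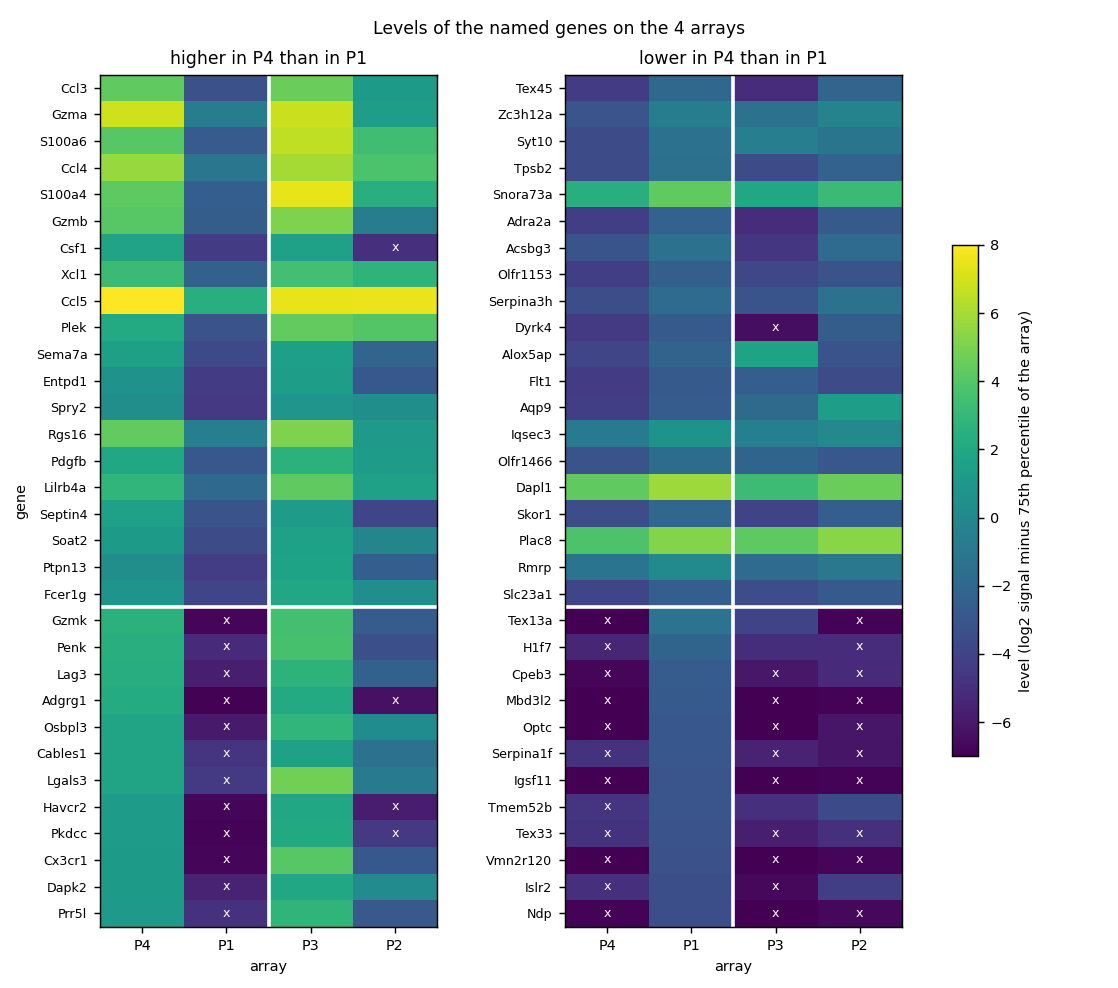
Level (colour, log2 signal minus the array's 75th percentile) on the P4, P1, P3 and P2 arrays of the 20 measured genes with the largest difference and, under the white line, the 12 with the largest bounds, for genes higher (left) and lower (right) in P4. An x marks a value not well above background; the columns of P4 and P3 look alike in most higher genes, and many of the lower genes are dim on every array.

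Several probes per gene gave a check within the arrays. Of 119 higher genes that were measured on both arrays, outside locally bright areas and read by at least 2 measured probes, 78 were at least 2-fold higher by every probe, 36 more had the same sign throughout and 5 had probes of opposite sign. Of 22 such lower genes, 9 were at least 2-fold lower by every probe, 11 more had the same sign and 2 differed. Among the 12071 genes above background on both arrays, so without bounds, higher genes made up 4.43% of genes with a mean level under -3, 7.81% from -3 to 0, 1.79% from 0 to 3 and 0.509% above, and lower genes made up 2.37%, 1.84%, 0.227% and 0.400%.

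Genes lower in P4 were fewer, nearer to 2-fold and often dim. Outside locally bright areas 97 were measured on both arrays, and 22 of these had a mean level of 0 or more. Naive T cell surface and other genes formed the list with the lowest median, -0.70, with 24 of 26 differences negative and 6 genes at least 2-fold lower; 4 were lower under quantile normalization and in the authors' deposited value table, and 3 with normexp before quantile normalization. Dapl1, a gene of resting naive and memory cells, stood at 4.36 in P4 and 5.79 in P1, with 3.27 in P3 and 4.66 in P2. Igfbp4, an insulin-like growth factor binding protein gene, stood at 0.37 in P4 and 1.53 in P1, with -4.21 in P3 and -1.54 in P2. Both genes had their highest level in P1, and P4 lay above P3. Cd55, a complement regulator gene, was -1.16 apart with 3 probes between -1.16 and -0.99, and Rapgef4, a cAMP-activated exchange factor gene, -1.05. The near-identical surface antigen genes Ly6c1 and Ly6c2 stood at 5.38 and 5.40 in P4, against 6.54 and 6.59 in P1, with 6.58 and 6.63 in P3 and 7.75 and 7.86 in P2, so that P4 was the lowest of the 4 arrays; neither gene stayed 2-fold lower than in P1 under quantile normalization, with or without normexp, or in the authors' deposited value table. Plac8 stood at 3.78 in P4 and 5.20 in P1.

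Zc3h12a encodes Regnase-1, an RNase that degrades transcripts of T cell activation genes. It stood at -3.05 in P4 and -0.63 in P1, with -1.37 in P3 and -0.32 in P2, a P4 minus P1 difference of -2.43 from 1 probe. Of 16 measured genes of mRNA decay it was the only one past 2-fold; its relatives Rc3h1, the Roquin-1 gene, and Zfp36l2 differed by -0.01 and -0.32. The small RNA genes Snora73a and Rmrp, a small nucleolar RNA and the RNA subunit of RNase MRP, differed by -1.95 and -1.37, with levels of 2.41 in P4 and 4.36 in P1 for the first. Genes named for testis or chemosensory expression made up part of the rest, namely Tex45 (-2.49), the olfactory receptor genes Olfr1153 (-1.73) and Olfr1466 (-1.46) and, among bounds, Tex13a (-3.56), the testis histone gene H1f7 (-2.63), Tex33 (-1.60) and the vomeronasal receptor gene Vmn2r120 (-1.52). Their P1 levels ran between -3.30 and -1.26, in the range where spot noise is larger.

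Type I interferon response genes had a small but even difference, with 38 of 39 members negative and a median of -0.29, against -0.06 for all genes. Oasl2 (-0.84), Oas2 (-0.79), Usp18 (-0.66, in a locally bright area) and Rsad2 (-0.57), which encode antiviral and feedback proteins, were among the larger differences. Isg15 (-0.06), Stat2 (0.02) and Ifih1 (-0.09) were level, and the 2 members past 2-fold were the Ly6c genes named above, which are not confined to the interferon response; under the 3 settings just named for them 0 members were past 2-fold.

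Markers of other cell types were compared to see what else the sorted cells could hold. In the list of class II and type 2 dendritic cell genes, 5 of 9 measured members were higher by at least 2-fold and 0 lower (median 1.25). All 9 were well above background in P4, against 7 in P1. Over the 7 above background on both arrays 3 were higher (median 0.85). H2-Eb1 stood at 1.21 in P4 and -1.17 in P1, with 5.80 in P3 and 0.94 in P2, and Cd74, the class II chaperone, at 0.83 in P4 and -0.41 in P1, with 5.66 in P3 and 0.03 in P2. P4 was thus close to P2 and far below P3. The summed signal of this list was 128 in P4 and 110.3 in P1, against 352 in P3. The dendritic cell genes Cd209a, Clec10a, Xcr1 and Clec9a were not well above background in P4 or P1. Macrophage and monocyte genes had 7 of 21 members measured and 2 at least 2-fold higher (median 0.26), with a summed signal of 3.84 in P4 and 2.71 in P1; Adgre1, Lyz2, Mertk and C1qa were not well above background. B cell genes had 7 of 15 measured, 0 past 2-fold and a median of 0.02 (summed signal 4.95 in P4 and 5.77 in P1), with Cd79a and Pax5 not well above background.

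Erythroid genes had 3 of 6 measured members at least 2-fold higher (median 0.83), among them the near-identical globin genes Hba-a1 and Hba-a2 at 1.41 each (0.36 by a second Hba-a1 probe), with a summed signal of 3.73 in P4 and 1.17 in P1. Innate lymphoid cell genes of types 2 and 3 had 2 of 5 higher, Klrg1 and the stem cell factor receptor gene Kit (-0.10 in P4 and -4.06 in P1), and gamma delta T cell genes 1 of 5, Maf. Plasma cell genes had 1 of 6 higher, Prdm1, and plasmacytoid dendritic cell genes 1 of 10 higher and 1 lower. Neutrophil genes had 0 of 7 past 2-fold (median -0.31), as had platelet genes (0 of 2) and stromal genes (0 of 2). Type 1 dendritic cell genes had 2 of 9 higher and 1 lower, and mast cell genes 1 of 3 higher and 1 lower. The part of such cells in the differences between P4 and P1 was not tested.

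CD62Llow cells were also set against CD62Lhigh cells at high CD44 (P3 minus P2), a comparison that shares no array with P4 minus P1. Of the genes at least 2-fold higher in P4, 678 were measured in P3 or P2, and 513 of these (75.7%) also passed 2-fold in P3 over P2, while 20 (2.95%) were lower by as much. Over all 12817 genes measured in both comparisons 8.63% were higher and 5.16% lower in P3. The 513 genes were 46.4% of the 1106 genes higher in P3, so that most of the P3 list did not reach 2-fold in P4. Of the genes lower in P4, 147 were measured and 65 (44.2%) were also lower in P3, which is 9.83% of the 661 genes lower in P3. Without genes in locally bright areas of any array the shares were 76.1% of 628 higher and 48.7% of 117 lower genes.

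The genes differed in how far both comparisons went together. Gzma, Gzmk, Penk and Adgrg1 were higher by 7.64, at least 7.29, at least 7.13 and at least 6.91 in P4 over P1, and by 5.38, 6.12, 6.95 and at least 6.76 in P3 over P2. Ccl5 and Xcl1 were 5.61 and 5.68 higher in P4 over P1, and -0.04 and 0.76 apart in P3 over P2, where P2 was already high. Coinhibitory genes had medians of 2.24 in P4 minus P1 and 2.41 in P3 minus P2, cell cycle genes 0.54 in P4 minus P1 and 1.16 in P3 minus P2, and class II genes 1.25 in P4 minus P1 and 5.09 in P3 minus P2. Over genes above background in P4 and P1 alike, the P4 minus P1 medians of these lists were 2.09, 0.44 and 0.85. Naive surface genes had a median of -0.70 in P4 minus P1, with 6 members at least 2-fold lower, and of -1.18 in P3 minus P2, with 17 lower. The difference between both comparisons was not tested for any gene or list.

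**Figure D4:**
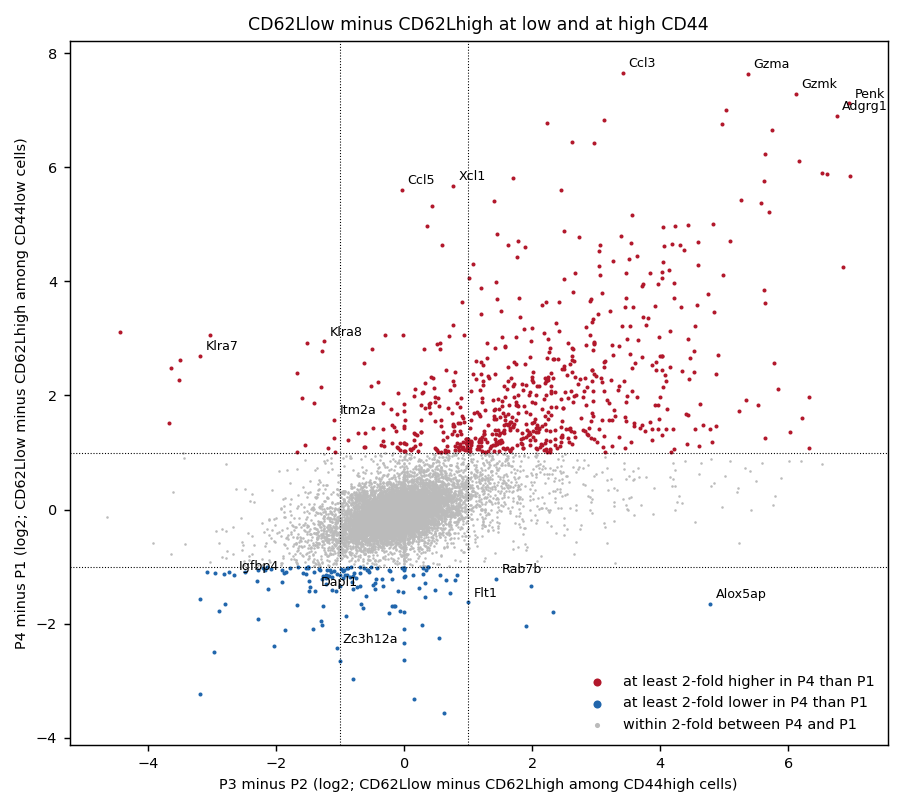
P4 minus P1 difference (vertical, log2, CD44low cells) against the P3 minus P2 difference (horizontal, log2, CD44high cells) of each gene measured in both, with red and blue points at least 2-fold higher and lower in P4 than in P1. Of the red points 513 of 678 lie right of the dotted line at 2-fold, while a few, such as the Ly49 gene Klra7, lie left of it, and Alox5ap is low in one comparison and high in the other.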

How the data were processed

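Total RNA of sorted CD8 T cell subsets was turned into cDNA from random primers, and Cy3-labelled cRNA was put on 4 arrays of 1 slide, per the labels' protocols and the file headers. The authors extracted spot intensity with Agilent Feature Extraction 11.0.1.1, per the submitters' processing notes, and the deposited processed signal is background-subtracted but not normalized between arrays. The authors' deposited value table of log2 values (26188 probes, median 8.85 in each column) holds the same sorted values in every column and correlated with log2 processed signal at 0.999 or more on every array. It was therefore read as quantile normalized, not centred and of the same direction, and used only as an alternative.

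Of 62976 spots per array 59305 were no controls, for 56605 probes. Outlier spots (152 in P4, 122 in P1) were dropped, 0 spots were saturated, and the 75th percentile of each array was taken off its log2 signal before averaging per probe. RefSeq accessions named 32994 probes (58.3%) through a gene table of GRCm38.p6; 23611 probes stayed unnamed. A gene took its measured probe with the highest mean over P4 and P1. Of the genes compared, 12071 were well above background on both arrays, 706 on P4 only and 398 on P1 only. A spot was called raised if well above background and at least 2-fold over the same spot on every other array, and lay in a locally bright area with enough raised neighbours within 32 position units (2 for P4 and P1, 3 for P2, 4 for P3).

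Genes were counted at 2-fold, by size alone. In each direction the text names the 20 largest measured differences and 12 largest bounds, outside bright areas, with probes of 1 sign and no clone names, besides marker genes and members of 38 lists of function and 15 of cell type markers; not all are printed. Members, lists and this rule were chosen with earlier results of these data known. Alternatives were quantile normalization, median scaling, normexp on median signals followed by quantile normalization (offset 50, limma 3.58.1 in R 4.3.3), filters, probe choice, outlier spots kept, bright areas left out, the authors' values and a 4-fold threshold. Counting was tested on simulated data. Python 3.11.15, numpy 2.4.6, pandas 2.3.3, scipy 1.17.1 and matplotlib 3.10.9 were used. Promoters came from RefSeq (GRCm38.p6); 39 of 64 named genes had exactly 1 usable entry. No gene coordinates from the array's own build were used. Some genes of the lists are counted but not reported here singly.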

Additional observations from a re-analysis of the deposited data

Results flagged for a closer look

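Of the genes with the largest differences and the members of the gene lists, 5 that were measured on all 4 arrays outside locally bright areas were at least 2-fold apart in opposite directions in the CD62Llow against CD62Lhigh comparison at low and at high CD44. Each subset is 1 array, so the difference between both comparisons was not tested. Alox5ap, whose product feeds arachidonic acid to leukotriene synthesis, had a P4 minus P1 difference of -1.65 and a P3 minus P2 difference of 4.78; it stood at -3.85 in P4 and -2.21 in P1, and at 1.69 in P3 and -3.08 in P2. Flt1, a receptor gene for vascular endothelial growth factor, had a P4 minus P1 difference of -1.63 and a P3 minus P2 difference of 1.00. It was dim, at -4.39 in P4 and -2.76 in P1, and at -2.52 in P3 and -3.52 in P2. Under the processing alternatives the P4 minus P1 difference ran from -1.70 to -0.71 for Alox5ap and from -1.67 to -0.61 for Flt1. Neither thus stayed 2-fold lower throughout, and such ranges were not worked out for Rab7b, Klra7 and Klra8. The small GTPase gene Rab7b, on the list of type 1 dendritic cell markers, had differences of -1.21 in P4 minus P1 and 1.44 in P3 minus P2. The Ly49 receptor genes, Klra7 and Klra8, went the other way, with P4 minus P1 and P3 minus P2 differences of 2.70 and -3.19 for Klra7 and of 2.95 and -1.25 for Klra8; probes of this near-identical family can share targets.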

How the results depend on the processing

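Normexp correction on median signals followed by quantile normalization reduced the 723 higher and 233 lower genes to 396 and 64. Requiring signal above background in P4 and in P1 left 410 and 111. Dropping filter and floor gave 1289 and 885, the authors' values gave 421 and 97, and a 4-fold threshold gave 308 and 56. The authors' values cover almost only probes above background on every array, so their counts are not apart from that filter. Leaving out locally bright areas gave 661 and 135. Quantile normalization (709 and 247), median scaling (732 and 227), the mean over probes (716 and 236) and outlier spots kept (723 and 234) stayed within 1.5 times. No gene changed sides: 0 genes called in 1 direction were called in the other under these alternatives. Higher genes were 75.6% of all genes past the threshold, 59.3% with no filter, 86.1% after normexp with quantile normalization, and 83.0% without bright areas. The median of all genes moved between -0.10 and -0.01. The chemokine median of 3.09 was -0.048 over 17 members with no filter and no floor, a setting that adds 9 dim genes, and 5.62 at its highest. Moves were counted from 0.25, the larger spot noise half-width over all levels, although below a level of -3 it was 0.61 in P4 and 0.62 in P1. Of 83 named gene differences 66 moved by as much after normexp with quantile normalization (Gzmk to 5.25, Plek to 4.20, Fcer1g to 2.98 and Ptpn13 to 2.66), 17 with the mean over probes and 17 with no filter. Of 53 list medians 9 moved by as much after normexp with quantile normalization, 10 over genes above background on both arrays, 10 with no filter, 8 in the authors' values and 2 with the mean over probes. Several medians near 0 changed sign among the alternatives. They ran from -0.14 to 0.06 for T cell receptor genes and from -0.15 to 0.02 for MAP kinase and AKT feedback genes. For oxidative phosphorylation the range was -0.10 to 0.06, and for costimulatory receptors -0.03 to 0.08. Among genes above background on both arrays, natural killer lectin genes had a median of 0.03, against 2.70, regulatory T cell genes 1.00, against 1.79, integrin genes 0.28, against 0.56, and, with no filter, cytokine genes 0.52, against 0.80, and granule genes 0.44, against 0.76. No paired analysis was possible because each subset has 1 array. Precision is limited by that number and, for 316 higher and 122 lower genes, by signal at background on 1 array.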

Other observations

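Among genes outside the lists, those lower in P4 at a mean level of 0 or more included receptor and signalling genes, chosen after their values were seen. Vipr1, a receptor gene for vasoactive intestinal peptide, stood at 3.81 in P4 and 4.90 in P1, with 2.19 in P3 and 4.93 in P2. Irs2, an insulin and cytokine receptor substrate gene, stood at 2.74 in P4 and 3.80 in P1, with 1.44 in P3 and 3.73 in P2. Raver2 and Pard6g were -1.12 apart each, and both were lower still in P3 against P2, at -2.81 and -1.58.

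Other genes with opposite directions in P4 minus P1 and P3 minus P2, likewise chosen after their values were seen, were Klra16 (2.48 and -3.64), Itm2a, a membrane protein gene of activated and developing T cells (1.57 and -1.09), Samd3 (1.08 and -1.20) and Ifngas1, a noncoding RNA gene beside Ifng (1.00 and -1.07). Klra16 is a further Ly49 gene, at -1.69 in P4 and -4.17 in P1, with 1.23 in P3 and 4.88 in P2. These levels lay near those of Klra7, and probes of this family can share targets, so both genes may read 1 signal. Itm2a stood at 3.14 in P4 and 1.56 in P1, with 2.68 in P3 and 3.77 in P2.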
